A study of Homo sapiens with 8 samples.

Results

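Amphiregulin (AREG), epiregulin (EREG), heparin-binding EGF-like growth factor (HBEGF), transforming growth factor alpha (TGFA) and betacellulin (BTC), 5 ligands of the ERBB family, were examined together with the receptors EGFR, ERBB2 and ERBB3 and with KITLG, the ligand of the receptor KIT. The genes were taken by mapping the Ensembl IDs of the count table to these symbols, which gave 9 of 40295 gene IDs, and all 9 were among the 16519 IDs that passed the filter on low counts. HCT116 is a cell line from a human colorectal carcinoma, and its RNA was measured in 4 groups of 2 libraries. These were MED12 E33Q cells given 5 ng/ml interferon-gamma (IFN-γ) for 24 h, untreated MED12 E33Q cells (0 h), wild-type cells with the same IFN-γ treatment and untreated wild-type cells (0 h). MED12 belongs to the kinase module of Mediator, the complex that links transcription factors to RNA polymerase, and MED12 E33Q cells, represented by 1 line, carry this substitution through CRISPR-Cas9 knock-in. No untreated library was taken at 24 h, so that the effect of IFN-γ and that of time in culture cannot be told apart. The submitters describe the replicates as biological but do not say whether they came from separate cultures, and the p-values measure the spread between these libraries.

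ERBB receptors are tyrosine kinases that pair with each other when a ligand binds. Amphiregulin and TGFA bind EGFR, whereas epiregulin, betacellulin and HBEGF bind EGFR and ERBB4. ERBB2 has no known ligand of its own and serves as a pairing partner, and ERBB3, which binds neuregulins, has a weak kinase. The ligands are made as membrane-bound precursors that ADAM proteases release, and the paired receptors signal through RAS and ERK. In colorectal cancer, AREG and EREG are known as the abundant ligands of EGFR. KITLG, also called stem cell factor, is not an ERBB ligand. It is made by epithelial and stromal cells and acts on cells that carry KIT, such as mast cells and blood progenitors.

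The sequences just upstream of a RefSeq start of 5 of the genes are printed, and 3 of these genes share a TATAAA sequence near that start. The windows of TGFA, BTC and HBEGF are not printed, although TGFA and BTC also carried changes described below. The RefSeq promoter table (GRCh38.p14) matched 8 of the 9 symbols. Each window holds the 250 bases before the start, read 5′ to 3′ on the strand of the gene. Capitals mark matches, on either strand, to the 4 motifs that were searched. TATAAA is the core of the TATA box. The interferon-stimulated response element was searched by its core. TGANTCA is the AP-1 site, and TGACGTCA is the cAMP response element, with which the AP-1 site did not overlap in these windows.
KITLG promoter, GRCh38.p14 chr12:88580472-88580721, minus strand: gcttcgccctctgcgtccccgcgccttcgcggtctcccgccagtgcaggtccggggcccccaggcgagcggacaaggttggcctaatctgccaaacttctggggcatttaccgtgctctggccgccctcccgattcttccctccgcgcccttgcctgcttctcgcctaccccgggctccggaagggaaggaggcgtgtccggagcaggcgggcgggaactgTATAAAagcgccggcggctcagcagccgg
AREG promoter, GRCh38.p14 chr4:74444886-74445135, plus strand: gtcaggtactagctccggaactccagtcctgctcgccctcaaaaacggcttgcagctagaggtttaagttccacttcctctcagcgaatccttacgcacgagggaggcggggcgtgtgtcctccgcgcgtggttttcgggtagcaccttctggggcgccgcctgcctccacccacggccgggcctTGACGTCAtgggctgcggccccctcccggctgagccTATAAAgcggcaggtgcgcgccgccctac
EREG promoter, GRCh38.p14 chr4:74364895-74365144, plus strand: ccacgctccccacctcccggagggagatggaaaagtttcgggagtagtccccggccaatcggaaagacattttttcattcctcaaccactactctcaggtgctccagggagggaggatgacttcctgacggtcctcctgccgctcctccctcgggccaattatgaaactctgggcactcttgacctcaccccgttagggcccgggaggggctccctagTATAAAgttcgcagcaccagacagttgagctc
EGFR promoter, GRCh38.p14 chr7:55018767-55019016, plus strand: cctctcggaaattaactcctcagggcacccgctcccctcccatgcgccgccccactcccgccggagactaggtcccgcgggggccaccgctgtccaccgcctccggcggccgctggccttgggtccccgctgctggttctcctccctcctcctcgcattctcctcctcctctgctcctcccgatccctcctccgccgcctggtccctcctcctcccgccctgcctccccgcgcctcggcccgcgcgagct
ERBB2 promoter, GRCh38.p14 chr17:39687844-39688093, plus strand: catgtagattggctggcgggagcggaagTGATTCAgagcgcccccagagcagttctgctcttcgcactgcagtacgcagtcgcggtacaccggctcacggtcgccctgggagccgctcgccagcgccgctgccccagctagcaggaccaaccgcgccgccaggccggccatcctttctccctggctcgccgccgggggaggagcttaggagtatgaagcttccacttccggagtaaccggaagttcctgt

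The KITLG and AREG windows hold TATAAA beginning 29 bases before the start, and the EREG window holds it 32 bases before. Over 35116 promoter windows of the same length, 10.7% hold TATAAA at any position on either strand. The share with TATAAA as near to the start was not counted, and the shares given below likewise hold for any position. AREG has TGACGTCA 65 bases before its start, a sequence found in 1.65% of windows. The ERBB2 window holds TGANTCA 222 bases before the start, against 6.57% of all windows. EGFR has a second window at a downstream start with TATAAA and TGANTCA matches, and the first EGFR window, printed above, holds none of the 4 motifs. The core of the interferon-stimulated response element, which occurs in 3.02% of windows, has no match in the 10 windows of these genes. A match is a description of the letters and no binding was measured.

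Library totals lay between 20901909 and 28045842 estimated counts. IRF1, an IFN-γ target that served as a check of the treatment, averaged 344 CPM in treated and 11.4 CPM in untreated MED12 E33Q cells, and 349 CPM in treated and 12.0 CPM in untreated wild-type cells. MED12 had 33.3 and 30.1 CPM in treated against 12.9 and 11.2 CPM in untreated MED12 E33Q libraries, and 34.3 and 28.3 CPM in treated against 23.1 and 14.2 CPM in untreated wild-type libraries. E33Q is a substitution, so that these levels do not check the genotype. The base composition of the libraries moved with treatment: counts averaged over 49.11 and 49.15% GC in treated against 46.32 and 46.42% in untreated MED12 E33Q libraries, and over 49.02 and 48.95% in treated against 47.67 and 46.50% in untreated wild-type libraries. ERCC spike-in RNA took 0.263 and 0.263% of counts in treated against 0.138 and 0.141% in untreated MED12 E33Q libraries, and 0.228 and 0.271% in treated against 0.110 and 0.128% in untreated wild-type libraries. The called changes of the 9 genes, and those of the listed genes named around them, are therefore given or described also after removal of a trend on GC content and transcript length, and after scaling to the spike-ins, which lowered the median log2 change of all genes by 0.53 for the response of MED12 E33Q cells and by 0.80 for that of wild-type cells. The 9 plasma cell and leukocyte markers summed to 1.14 and 265 CPM in treated and 1.11 and 336 CPM in untreated MED12 E33Q libraries, and to 1.03 and 0.694 CPM in treated and 345 and 384 CPM in untreated wild-type libraries. These markers thus separate treated from untreated wild-type libraries, and their part in the wild-type response was not tested. In MED12 E33Q cells the markers were high in replicate 2 only, at both times, so that the line differences are unbalanced in them too. Whether these transcripts came from cells of the cultures was not tested. For any cell type in bulk libraries, fewer cells and less RNA per cell cannot be told apart. Of the 8 colon epithelial markers, whose sums ran from 1920 to 4510 CPM, VIL1 and LGALS4 were at or near 0. Mast cell markers summed to at most 0.534 CPM, with TPSAB1 and CPA3 at 0 in every library.

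Positions are those of GENCODE 29 on GRCh38. EREG (chromosome 4, 74365143 to 74388751) and AREG (chromosome 4, 74445134 to 74455009) lie near each other on the plus strand, and BTC (chromosome 4, 74744759 to 74794686) lies farther along on the minus strand. HBEGF is on chromosome 5 (140332843 to 140346631, minus strand) and TGFA on chromosome 2 (70447280 to 70554193, minus strand). EGFR is on chromosome 7 (55019021 to 55211628, plus strand), ERBB2 on chromosome 17 (39687914 to 39730426, plus strand) and ERBB3 on chromosome 12 (56076799 to 56103505, plus strand). KITLG is on another stretch of chromosome 12 (88492793 to 88580851, minus strand). Counts were summed over the transcripts of each gene, so that isoforms, such as the soluble and membrane forms of stem cell factor, were not separated.

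Levels of different genes are compared as CPM per kilobase of mean transcript length. KITLG was the highest of the 9 in every group, at 201 CPM per kb in treated and 1001 CPM per kb in untreated MED12 E33Q cells, and at 206 CPM per kb in treated and 632 CPM per kb in untreated wild-type cells. These levels placed it 255th in treated and 76th in untreated MED12 E33Q cells, and 251st in treated and 116th in untreated wild-type cells, among 15270 tested genes with a length. AREG and EREG came next. AREG stood at 150 and 198 CPM per kb in treated and untreated MED12 E33Q cells, and at 114 and 167 CPM per kb in treated and untreated wild-type cells. EREG stood at 122 and 174 CPM per kb in treated and untreated MED12 E33Q cells, and at 139 and 156 CPM per kb in treated and untreated wild-type cells. EREG was above AREG in treated wild-type cells and below it in treated MED12 E33Q cells, with no overlap of replicates, while the replicates of the pair overlapped in both untreated groups.

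TGFA was the third ERBB ligand, at 34.2 and 44.9 CPM per kb in treated and untreated MED12 E33Q cells and 46.0 and 62.9 CPM per kb in treated and untreated wild-type cells. EGFR was the highest receptor in every group. In treated cells it stood at 24.0 CPM per kb in MED12 E33Q and 37.8 CPM per kb in wild-type cells. In untreated cells EGFR stood at 11.4 CPM per kb in MED12 E33Q and 23.4 CPM per kb in wild-type cells. ERBB3 lay between 10.2 and 17.7 CPM per kb and ERBB2 between 4.74 and 15.0 CPM per kb over the 4 group means. ERBB3 and ERBB2 replicates overlapped in treated MED12 E33Q cells. BTC and HBEGF were the lowest ligands, at 2.72 to 5.58 CPM per kb, and they could not be ordered against each other by non-overlapping replicates in untreated wild-type cells. In untreated cells, ERBB2 overlapped with HBEGF and with BTC in both lines.

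The missing partners bound what these levels can describe. ERBB4, KIT, EPGN and NRG3 did not pass the filter, and KIT, the receptor of KITLG, was at most 0.408 CPM in any library. Neuregulins, the family that holds the ligands of ERBB3, were low: NRG1 averaged 0.39 and 0.61 CPM in treated and untreated MED12 E33Q cells, and 1.58 and 2.13 CPM in treated and untreated wild-type cells. In the same order NRG2 averaged 0.58, 0.57, 0.75 and 1.07 CPM, and NRG4 averaged 0.66, 1.13, 2.82 and 2.40 CPM.

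**Figure D1:**
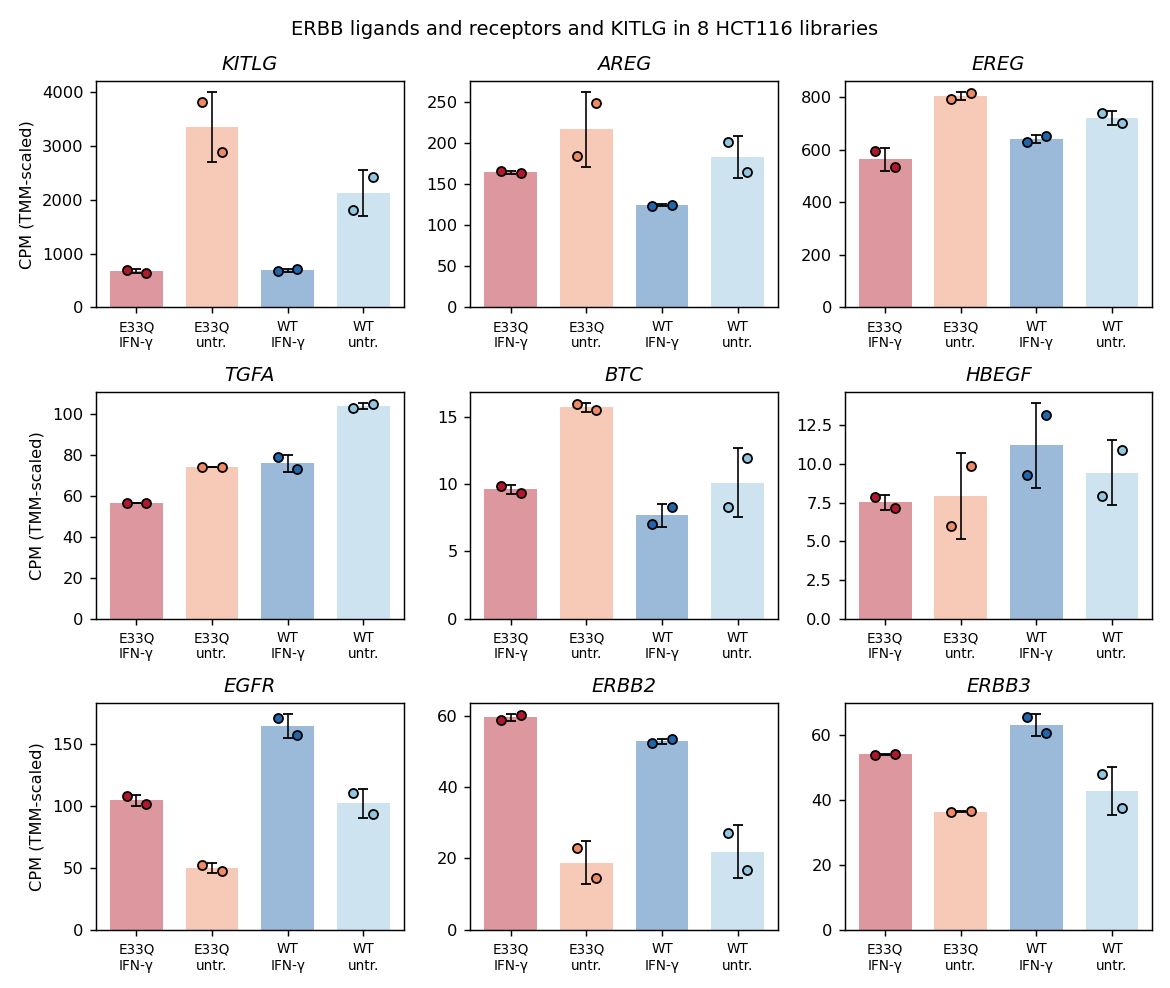
TMM-scaled CPM (vertical axes, linear and starting at 0) of the 9 genes in the 8 libraries, with points for libraries, bars for group means and error bars for the SD (n = 2). KITLG is lower and the 3 receptors are higher in the treated libraries of both lines, and EGFR is lower in MED12 E33Q than in wild-type cells at either time.

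The first question was how the 9 genes differed with IFN-γ in each line. On the TMM scale, all 3 receptors rose and KITLG fell in both lines, and none of the 5 ERBB ligands rose, although EREG was called higher once the GC and length trend was removed. EGFR was 2.10-fold higher in MED12 E33Q and 1.61-fold higher in wild-type cells, and ERBB2 was 3.19-fold and 2.41-fold higher. KITLG was 4.98-fold lower in MED12 E33Q and 3.07-fold lower in wild-type cells. Of these, the KITLG fall was called under all 3 scalings in both lines, whereas spike-in scaling ended every receptor call except that of ERBB2 in MED12 E33Q cells, and removal of the GC and length trend ended those of ERBB3 in both lines and of EGFR in wild-type cells.

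In the response of MED12 E33Q cells, 7 of the 9 genes passed the test (edgeR, quasi-likelihood F, p-values adjusted by Benjamini-Hochberg over all genes tested), 3 of them higher and 4 lower, in a contrast in which 52.1% of all genes were called, 26.4% higher and 25.8% lower. The 9 genes had a median log2 change of -0.39, against 0.12 over all tested genes. In the response of wild-type cells, 6 of the 9 passed, 3 higher and 3 lower, against 37.9% of all genes, of which 17.1% higher and 20.8% lower, with a median of -0.17 against 0.08 over all genes. With so many genes called in both responses, a call by itself does not set a gene apart. Over all genes, 4356 were higher and 4257 lower in the MED12 E33Q response. These numbers were 2144 and 2722 with the GC and length trend removed, and 616 and 5476 with spike-in scaling. In wild-type cells 2821 were higher and 3435 lower. They were 1700 and 2258 with the GC and length trend removed, and 233 and 6745 with spike-in scaling.

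Amphiregulin and epiregulin, the abundant ligands, gave different calls in the 2 lines. EREG had 594 and 534 CPM in treated against 794 and 817 CPM in untreated MED12 E33Q libraries. In wild-type libraries EREG had 632 and 654 CPM with IFN-γ against 741 and 703 CPM without. Treated libraries were below untreated ones in both lines without overlap. EREG fell in MED12 E33Q cells (log2 fold change -0.51 ± 0.11, SE; adjusted p = 0.00411), a call lost without treated MED12 E33Q replicate 2, and its value in wild-type cells was -0.17 ± 0.11 (adjusted p = 0.274). The direction turned round when the GC and length trend was removed, with EREG called higher at 0.56 in MED12 E33Q (adjusted p = 0.0143) and 0.52 in wild-type cells (adjusted p = 0.0259), and under spike-in scaling it was called lower at -1.04 and -0.98 (adjusted p = 0.000525 and 0.000769).

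AREG had 166 and 164 CPM in treated against 185 and 250 CPM in untreated MED12 E33Q libraries, and 124 and 125 CPM in treated against 201 and 166 CPM in untreated wild-type libraries. Again the treated libraries lay below the untreated ones without overlap in both lines. AREG fell in wild-type cells (-0.56 ± 0.16, adjusted p = 0.0246), a call lost without either treated wild-type replicate, and stood at -0.40 ± 0.16 (adjusted p = 0.0656) in MED12 E33Q cells. With the GC and length trend removed the values turned positive and were not called, at 0.43 (adjusted p = 0.0954) in MED12 E33Q and 0.09 (adjusted p = 0.762) in wild-type cells. With spike-in scaling AREG was called lower in both, at -0.93 (adjusted p = 0.01) and -1.38 (adjusted p = 0.00101). Genes with a transcript GC content below 40%, where EREG lies at 36.1%, had a median log2 change of -1.07 in MED12 E33Q and -0.75 in wild-type cells. For genes with 40 to 45% GC, where AREG lies at 43.6%, the medians were -0.64 and -0.45.

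TGFA was the one ERBB ligand called lower in both lines under all 3 scalings. It had 56.5 and 56.8 CPM in treated against 74.3 and 74.3 CPM in untreated MED12 E33Q libraries. In wild-type libraries it had 79.1 and 73.2 CPM with IFN-γ against 103 and 105 CPM without. The groups did not overlap within either line, and the highest treated wild-type value exceeded both untreated MED12 E33Q values. The changes were -0.39 ± 0.12 (adjusted p = 0.0199) in MED12 E33Q and -0.45 ± 0.12 (adjusted p = 0.0154) in wild-type cells. They were -0.62 (adjusted p = 0.00169) and -0.59 (adjusted p = 0.00273) with the GC and length trend removed, and -0.92 (adjusted p = 0.00367) and -1.25 (adjusted p = 0.00057) with spike-in scaling. Genes of 50 to 55% GC, where TGFA lies at 53.9%, had positive medians of 0.42 and 0.32 on the TMM scale. The TGFA call was lost without any 1 of the 4 MED12 E33Q libraries in that line, and without either treated replicate in wild-type cells, while the value stayed near the same size (-0.47 to -0.39 over the 8 left-out libraries for MED12 E33Q cells).

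Of the low ligands, BTC had 9.85 and 9.34 CPM in treated against 15.9 and 15.5 CPM in untreated MED12 E33Q libraries, with no overlap. In wild-type libraries it had 7.06 and 8.29 CPM with IFN-γ against 8.28 and 11.9 CPM without, and these overlapped. BTC fell in MED12 E33Q cells (-0.71 ± 0.21, adjusted p = 0.0192), a call lost without any 1 of the 4 MED12 E33Q libraries, and was at -0.40 ± 0.22 (adjusted p = 0.178) in wild-type cells. Without the GC and length trend BTC stood at 0.16 (adjusted p = 0.525) and 0.22 (adjusted p = 0.378), and with spike-in scaling it was called at -1.24 (adjusted p = 0.0013) and -1.18 (adjusted p = 0.00181). HBEGF was not called in either line under any of the 3 scalings. It had 7.84 and 7.18 CPM in treated against 5.96 and 9.89 CPM in untreated MED12 E33Q libraries, and 9.27 and 13.1 CPM in treated against 7.95 and 10.9 CPM in untreated wild-type libraries, overlapping in both lines.

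Among the receptors, ERBB2 showed the largest change. It had 58.9 and 60.2 CPM in treated against 23.0 and 14.5 CPM in untreated MED12 E33Q libraries. Wild-type libraries had 52.3 and 53.4 CPM with IFN-γ against 27.1 and 16.7 CPM without. All 4 treated libraries lay above all 4 untreated ones. ERBB2 rose by a log2 fold change of 1.67 ± 0.26 (adjusted p = 0.000679) in MED12 E33Q and 1.27 ± 0.26 (adjusted p = 0.00455) in wild-type cells, and both calls held with each of the 8 libraries left out. With the GC and length trend removed the values were 0.64 (adjusted p = 0.00926) and 0.65 (adjusted p = 0.0111). With spike-in scaling they were 1.14 (adjusted p = 0.0291) and 0.43 (adjusted p = 0.371). Genes of 55 to 60% GC, where ERBB2 lies at 59.6%, had median changes of 0.76 and 0.47.

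EGFR, the receptor of all 5 ligands, had 108 and 102 CPM in treated against 52.6 and 47.2 CPM in untreated MED12 E33Q libraries. In wild-type libraries it had 172 and 158 CPM with IFN-γ against 111 and 93.7 CPM without. Treated MED12 E33Q cells thus reached about the level of untreated wild-type cells, with means of 105 ± 4.32 and 102 ± 12.0 CPM (SD, n = 2 each). EGFR rose by 1.07 ± 0.14 (adjusted p = 0.000308) in MED12 E33Q and by 0.69 ± 0.14 (adjusted p = 0.00403) in wild-type cells, and was called with each library left out. After removal of the GC and length trend EGFR was still called in MED12 E33Q cells at 0.39 (adjusted p = 0.00725) but not in wild-type cells at 0.21 (adjusted p = 0.1). Under spike-in scaling neither was called, and the sign turned in wild-type cells, at 0.54 (adjusted p = 0.0943) and -0.12 (adjusted p = 0.713).

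ERBB3 had 53.8 and 54.1 CPM in treated against 36.3 and 36.5 CPM in untreated MED12 E33Q libraries, and 65.4 and 60.7 CPM in treated against 48.0 and 37.6 CPM in untreated wild-type libraries. Treated libraries lay above untreated ones of the same line. The changes on the TMM scale were alike, 0.57 ± 0.15 (adjusted p = 0.00997) in MED12 E33Q and 0.56 ± 0.15 (adjusted p = 0.0165) in wild-type cells. They shrank to 0.03 (adjusted p = 0.844) and 0.16 (adjusted p = 0.267) with the GC and length trend removed, and were 0.04 (adjusted p = 0.93) and, with the sign turned, -0.26 (adjusted p = 0.461) with spike-in scaling. The call was lost without untreated replicate 2 or either treated replicate of MED12 E33Q cells, and without either treated replicate of wild-type cells.

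KITLG fell the most of the 9 genes. It had 699 and 645 CPM in treated against 3809 and 2889 CPM in untreated MED12 E33Q libraries. Wild-type libraries had 670 and 706 CPM with IFN-γ against 1815 and 2416 CPM without. The 4 treated libraries spanned a narrow range whichever the line, and the 4 untreated ones were all above them and spread widely. The log2 fold changes were -2.32 ± 0.18 (adjusted p = 6.48e-05) in MED12 E33Q and -1.62 ± 0.17 (adjusted p = 0.000418) in wild-type cells. Both calls held with each library left out, over ranges of -2.50 to -2.11 and -1.90 to -1.40. With the GC and length trend removed KITLG changed by -1.58 (adjusted p = 3.79e-05) and -1.12 (adjusted p = 0.0003), and with spike-in scaling by -2.85 (adjusted p = 7.76e-06) and -2.40 (adjusted p = 6.75e-06). Its transcripts have 40.7% GC, in the bin of 40 to 45% GC whose median changes were -0.64 and -0.45. Replicate 2 of MED12 E33Q cells, which carried the plasma cell markers, was also left out at both times. KITLG, EGFR and ERBB2 then stood at -2.45, 1.04 and 1.35 in the MED12 E33Q response. That fit left a lone library in each MED12 E33Q group, so that the spread was taken from the wild-type libraries.

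**Figure D2:**
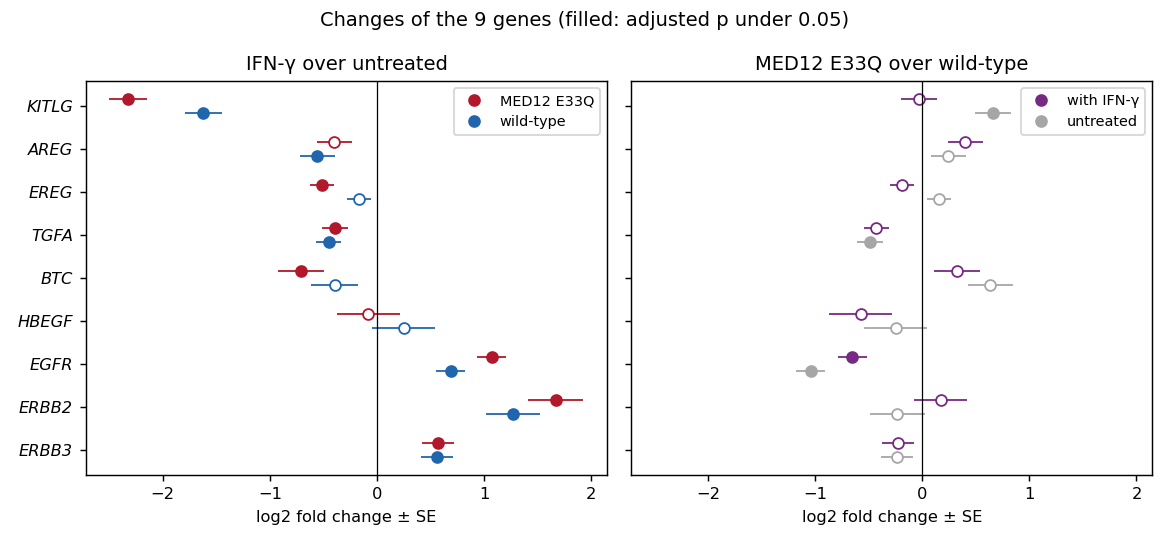
Log2 fold change with its standard error (horizontal axis) of the 9 genes with IFN-γ over untreated, by line (left), and in MED12 E33Q over wild-type cells, by treatment (right), from edgeR with TMM scaling. Filled points passed an adjusted p of 0.05. KITLG lies farthest to the left and ERBB2 farthest to the right among the responses, and EGFR is the gene filled for both line differences.

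**Figure D3:**
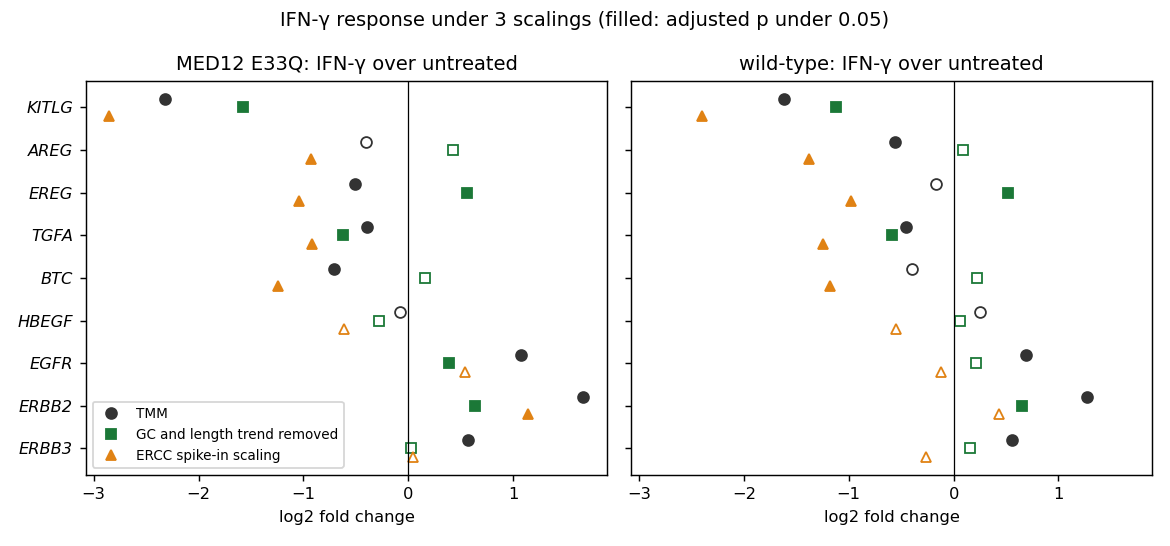
Log2 fold change of the IFN-γ response (horizontal axis) of the 9 genes in MED12 E33Q (left) and wild-type cells (right) with TMM scaling, after removal of the trend on GC content and length, and with ERCC spike-in scaling. Filled symbols passed an adjusted p of 0.05. KITLG and TGFA are filled to the left of 0 under all 3, while EREG lies on both sides of 0.

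The second question was how MED12 E33Q cells differed from wild-type cells in these genes. EGFR was lower in MED12 E33Q cells, 1.57-fold with IFN-γ and 2.05-fold without. TGFA was 1.40-fold lower and KITLG 1.58-fold higher in untreated MED12 E33Q cells. With IFN-γ, 1 of the 9 genes was called, and lower, in a contrast with 2.91% of all genes called, 1.63% higher and 1.28% lower. In untreated cells 3 of the 9 were called, 1 higher and 2 lower, against 8.43% of all genes, 4.26% higher and 4.17% lower. The median log2 difference of the 9 was -0.19 against -0.01 over all genes with IFN-γ, and -0.23 against -0.02 in untreated cells. In untreated cells 703 genes were higher and 689 lower on the TMM scale, and 150 and 517 with spike-in scaling.

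The EGFR difference was -0.65 ± 0.14 with IFN-γ (adjusted p = 0.036) and -1.04 ± 0.14 in untreated cells (adjusted p = 0.00301). At each time both MED12 E33Q libraries lay below both wild-type libraries. The untreated difference was called with each single library left out (-1.15 to -0.91), with the GC and length trend removed (-0.90, adjusted p = 0.000241) and with spike-in scaling (-1.38, adjusted p = 0.0168). It was not called with MED12 E33Q replicate 2 left out at both times, at -0.96. The difference with IFN-γ was -0.72 with the GC and length trend removed (adjusted p = 0.000942) and -0.72 with spike-in scaling (adjusted p = 0.243), and its call was lost in 6 of the 8 fits with 1 library left out, those without a treated library of either line or an untreated MED12 E33Q library.

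In untreated cells the KITLG difference was 0.66 ± 0.17 (adjusted p = 0.0443), and both MED12 E33Q libraries lay above both wild-type ones. The call stood in 2 of the 8 fits with 1 library left out, those without untreated wild-type replicate 2 or untreated MED12 E33Q replicate 2, over a range of 0.45 to 0.89. KITLG stood at 0.42 with the GC and length trend removed (adjusted p = 0.0383) and at 0.36 with spike-in scaling (adjusted p = 0.123). With IFN-γ the KITLG difference was -0.03 ± 0.17 (adjusted p = 0.96), with group means of 672 ± 38.0 CPM in MED12 E33Q and 688 ± 25.1 CPM in wild-type cells (SD, n = 2 each). The TGFA difference was -0.43 ± 0.12 with IFN-γ (adjusted p = 0.102) and -0.49 ± 0.12 in untreated cells (adjusted p = 0.0374), where the call stood in 2 of the 8 fits with 1 library left out, those without either untreated wild-type replicate. With the GC and length trend removed TGFA was called at both times, at -0.51 (adjusted p = 0.0137) with IFN-γ and -0.48 (adjusted p = 0.0117) in untreated cells, and with spike-in scaling it stood at -0.49 (adjusted p = 0.376) with IFN-γ and was called in untreated cells at -0.81, by an adjusted p that rounds to 0.05.

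The other 6 genes were not called between the lines at either time. BTC came nearest in untreated cells, at 0.64 ± 0.21 (adjusted p = 0.0958), and at 0.38 with the GC and length trend removed and 0.34 with spike-in scaling. ERBB2 stood at 0.17 with IFN-γ (adjusted p = 0.82) and -0.23 in untreated cells (adjusted p = 0.615), AREG at 0.40 (adjusted p = 0.275) and 0.24 (adjusted p = 0.374), and EREG at -0.19 (adjusted p = 0.479) and 0.16 (adjusted p = 0.41). The untreated values of ERBB2 (0.08) and EREG (-0.22) turned sign with the GC and length trend removed, and those of AREG (-0.10) and EREG (-0.18) did so with spike-in scaling. None of these 6 genes was called between the lines under either of those scalings.

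The third question was whether the response to IFN-γ differed between the lines, tested as an interaction. None of the 9 genes was called, with 0.0% of all genes called. KITLG had the most negative difference of responses, -0.70 ± 0.24 (adjusted p = 0.688), and ERBB2 and EGFR the most positive, 0.40 ± 0.36 (adjusted p = 0.738) and 0.38 ± 0.19 (adjusted p = 0.688). Over all genes edgeR called 0 of 16519, with 1119 at an unadjusted p under 0.05, DESeq2 called 4 and limma-voom 0. The larger responses of KITLG and EGFR in MED12 E33Q cells are therefore not shown to differ from those in wild-type cells.

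Genes around the receptors were taken from short lists, which were chosen with earlier results of these data known. Their counts and medians beside those of all genes therefore describe the lists and test nothing about them. Among the 8 other family members listed, 4 were tested. EGF, an EGFR ligand, averaged 4.09 ± 0.814 CPM in treated and 7.62 ± 0.371 CPM in untreated MED12 E33Q cells, and 1.80 ± 0.751 CPM in treated and 1.05 ± 0.0716 CPM in untreated wild-type cells (SD, n = 2 each). EGF was higher in untreated MED12 E33Q than in untreated wild-type cells (2.85 ± 0.39, adjusted p = 0.00343), in each of the 8 fits with 1 library left out, with the GC and length trend removed (2.76) and with spike-in scaling (2.52). With IFN-γ the difference was 1.18 (adjusted p = 0.145).

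Of the 4 genes that release the ligands, 2 rose and 2 fell in the MED12 E33Q response, in which 26.4% of all genes rose and 25.8% fell, with a median of 0.29 against 0.12 over all genes. In the wild-type response 1 rose and 1 fell, against 17.1% and 20.8% of all genes, with a median of 0.02 against 0.08. After removal of the GC and length trend the calls were 1 higher and 1 lower in MED12 E33Q cells and 0 higher and 1 lower in wild-type cells, and with spike-in scaling 1 higher and 2 lower, and 0 higher and 2 lower. Over all genes, trend removal gave 2144 higher and 2722 lower in MED12 E33Q cells, and 1700 and 2258 in wild-type cells. Spike-in scaling gave 616 and 5476, and 233 and 6745. These totals are also the background of the list counts under the alternatives in the next paragraphs. The sheddase ADAM10 fell by 0.92 (adjusted p = 0.000567) in MED12 E33Q and 0.63 (adjusted p = 0.00624) in wild-type cells on the log2 scale, and stayed called lower with the GC and length trend removed (-0.39 and -0.30) and with spike-in scaling (-1.46 and -1.41). RHBDF2, which encodes an iRhom partner of ADAM17, rose by 1.66 (adjusted p = 0.00024) and 0.92 (adjusted p = 0.00542). It stayed called in MED12 E33Q cells (0.55 and 1.13) but not in wild-type cells (0.29 and 0.10).

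ADAM17, the main sheddase of AREG and TGFA, fell in MED12 E33Q cells by 0.45 on the log2 scale (adjusted p = 0.0145), but stood at -0.03 (adjusted p = 0.87) with the GC and length trend removed and at -0.98 (adjusted p = 0.00123) with spike-in scaling. RHBDF1, the other iRhom gene, rose there by 1.03 (adjusted p = 0.0116), and stood at 0.00 (adjusted p = 0.998) and 0.50 (adjusted p = 0.344) under those scalings. Neither was called in the wild-type response, at -0.22 (adjusted p = 0.205) and 0.27 (adjusted p = 0.486).

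Among 13 adaptors and members of the RAS and ERK cascade, 5 rose and 3 fell in the MED12 E33Q response (26.4% and 25.8% of all genes; median 0.15 against 0.12), and 3 rose and 1 fell in the wild-type response (17.1% and 20.8% of all genes; median 0.09 against 0.08). These counts turned with the scaling. They were 4 higher and 0 lower in MED12 E33Q and 1 higher and 0 lower in wild-type cells with the GC and length trend removed, but 0 higher and 4 lower, and 0 higher and 7 lower, with spike-in scaling. Most calls over all genes were lower with spike-in scaling too, with 616 higher and 5476 lower in MED12 E33Q and 233 and 6745 in wild-type cells.

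The adaptor SHC1 rose by 1.10 (adjusted p = 0.000424) in MED12 E33Q and 0.77 (adjusted p = 0.00424) in wild-type cells, and stood at 0.33 and 0.26 with the GC and length trend removed and at 0.57 and, with the sign turned, -0.06 with spike-in scaling. GRB2, the adaptor that brings the exchange factor SOS1 to the receptors, rose by 0.98 (adjusted p = 0.00189) and 0.67 (adjusted p = 0.0196), and stood at 0.59 and 0.36, and at 0.45 and -0.17. MAP2K2, encoding the ERK kinase MEK2, rose in MED12 E33Q cells by 1.11 (adjusted p = 0.00677), and was called under neither alternative there (0.42 and 0.57). MAPK3, encoding ERK1, rose by 0.63 (adjusted p = 0.034) and 0.67 (adjusted p = 0.0354), and was likewise called under neither alternative in either line. The RAS gene NRAS fell by 0.97 (adjusted p = 0.000781) and 0.48 (adjusted p = 0.0346) on the log2 scale. It stood at -0.11 and, with the sign turned, 0.07 with the GC and length trend removed, and at -1.50 and -1.26 with spike-in scaling.

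Of 6 inhibitors of the receptors, 2 rose and 1 fell in the MED12 E33Q response (26.4% and 25.8% of all genes; median 0.49 against 0.12), and 2 rose and 2 fell in the wild-type response (17.1% and 20.8% of all genes; median 0.28 against 0.08). The counts with the GC and length trend removed were 1 higher and 1 lower in MED12 E33Q and 2 higher and 0 lower in wild-type cells. With spike-in scaling they were 0 higher and 2 lower in each line, and the medians turned negative, at -0.04 and -0.55. CBL, a ubiquitin ligase that marks EGFR for degradation, rose by 1.05 (adjusted p = 0.00125) and 0.94 (adjusted p = 0.00384), and was called in both lines also with the GC and length trend removed (0.67 and 0.61), but not with spike-in scaling (0.52 and 0.15). PTPN1, a tyrosine phosphatase, rose by 0.80 (adjusted p = 0.00479) and 0.73 (adjusted p = 0.0117), and was called under neither alternative (0.41 and 0.42, and 0.27 and, with the sign turned, -0.09). SOCS5 fell by 1.11 (adjusted p = 0.0003) and 0.68 (adjusted p = 0.00509) on the log2 scale. It was called lower in both lines with spike-in scaling (-1.64 and -1.46) and only in MED12 E33Q cells with the GC and length trend removed (-0.31, and -0.18 in wild-type cells).

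A list of genes that ERK signalling is known to induce came next, kept apart from its feedback inhibitors, and 8 of 9 were tested. In the MED12 E33Q response 6 of the 8 rose and none fell (26.4% and 25.8% of all genes), with a median of 0.85 against 0.12 over all genes, and 2 were called higher with the GC and length trend removed and 1 with spike-in scaling. EGR1, an immediate early transcription factor, rose by 1.47 (adjusted p = 0.000247) and was called under both alternatives (0.73 and 0.94). CCND1, encoding cyclin D1, rose by 1.21 (adjusted p = 0.00121) and was called with the GC and length trend removed (0.48) but not with spike-in scaling (0.68). EPHA2, a receptor tyrosine kinase, rose by 0.99 (adjusted p = 0.00454) and ETV4, a transcription factor, by 0.93 (adjusted p = 0.00302). Neither was called under the alternatives, and EPHA2 turned sign with the GC and length trend removed, at -0.07. In the wild-type response 2 of the 8 rose and none fell (17.1% and 20.8% of all genes), with a median of 0.44 against 0.08. These were EGR1 at 0.62 (adjusted p = 0.0177) and CCND1 at 0.64 (adjusted p = 0.0358), calls that stood in 5 and 3 of the 8 fits with 1 library left out. No gene of the list rose in wild-type cells under either alternative, and 1 fell with spike-in scaling. With the GC and length trend removed the list medians were 0.31 in MED12 E33Q and 0.002 in wild-type cells. With spike-in scaling they were 0.31 and -0.39. EGR1 and CCND1 transcripts have 55.4 and 57.3% GC, in the bin of 55 to 60% GC whose median changes were 0.76 and 0.47 on the TMM scale.

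Of 8 feedback inhibitors of ERK, 3 rose and 1 fell in the MED12 E33Q response (26.4% and 25.8% of all genes; median 0.28 against 0.12), and 1 rose and 1 fell in the wild-type response (17.1% and 20.8% of all genes; median 0.16 against 0.08). With the GC and length trend removed the counts were 1 higher and 1 lower in MED12 E33Q and 0 higher and 1 lower in wild-type cells, and with spike-in scaling 0 higher and 2 lower in each line. SPRY4, a Sprouty inhibitor of the pathway, rose by 1.22 (adjusted p = 0.000344) and 0.64 (adjusted p = 0.0115). In MED12 E33Q cells it was called in each of the 8 fits with 1 library left out and with the GC and length trend removed (0.48), but not with spike-in scaling (0.69). In wild-type cells it was called under neither, at 0.14 and, with the sign turned, -0.18. SPRED2, a Sprouty-related inhibitor, rose in MED12 E33Q cells by 0.74 (adjusted p = 0.0137) and was called there under neither alternative (0.24 and 0.21). DUSP5, a phosphatase of ERK, rose in MED12 E33Q cells by 0.51 (adjusted p = 0.0218), and turned sign uncalled under both, at -0.17 and -0.02. DUSP6, another phosphatase of ERK, went the other way and fell in both lines, by 0.71 (adjusted p = 0.0016) and 0.46 (adjusted p = 0.0225) on the log2 scale, and it was called lower in both with the GC and length trend removed (-0.78 and -0.56) and with spike-in scaling (-1.24 and -1.27).

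**Figure D4:**
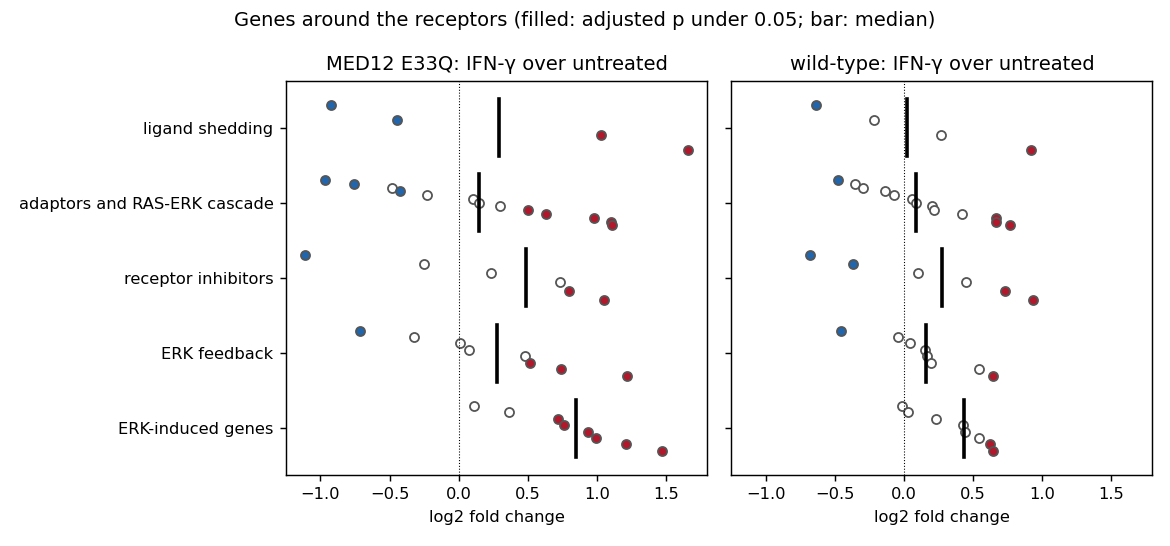
Log2 fold change of the IFN-γ response (horizontal axis, TMM scale) of genes in 5 lists around the receptors in MED12 E33Q (left) and wild-type cells (right). Points are genes, filled red or blue where called higher or lower at an adjusted p of 0.05, and bars are list medians. On this scale ERK-induced genes have the highest median in both lines, 0.85 and 0.44, and most lists hold calls in both directions. With the GC and length trend removed, which is not drawn, the medians of ERK-induced genes are 0.31 and 0.002. The lists were chosen with earlier results of these data known.

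Between the lines, untreated MED12 E33Q cells had lower levels of 5 of the 8 listed ERK-induced genes and higher levels of none. In this contrast 4.17% of all genes were lower and 4.26% higher. The median difference of the list was -0.80 against -0.02 over all genes. The calls were 5 lower and 1 higher with the GC and length trend removed, and 4 lower with spike-in scaling. Over all genes these settings gave 1472 lower and 1051 higher, and 517 lower and 150 higher. The log2 difference was -1.43 for EGR1 (adjusted p = 0.00222), -1.30 for FOSL1 (adjusted p = 0.0164), -1.21 for FOS (adjusted p = 0.00199) and -0.96 for CCND1 (adjusted p = 0.0264), all 4 called under both alternatives. EGR1 and FOS were called in each of the 8 fits with 1 library left out, FOSL1 in 6 and CCND1 in 2. Feedback inhibitors were listed apart from these genes. Among them DUSP6 was higher at 1.20 (adjusted p = 0.00129) and SPRY4 lower at -0.93 (adjusted p = 0.0103), and both were called under both alternatives. With IFN-γ, 2 of the 8 ERK-induced genes were lower and none higher, against 1.28% and 1.63% of all genes, FOS at -1.09 (adjusted p = 0.00388) and PHLDA1 at -0.73 (adjusted p = 0.047), with a list median of -0.48 against -0.01, and DUSP6 was higher at 0.94 (adjusted p = 0.00514). The calls of FOS, PHLDA1 and DUSP6 stood in 6, 2 and 4 of the 8 fits with 1 library left out, and none was made with spike-in scaling. These 3 calls were kept with the GC and length trend removed. The ERK-induced genes then went both ways, with 4 lower and 2 higher, against 794 lower and 590 higher over all genes. The 2 higher ERK-induced genes, named after their values were seen, were ETV4 (0.58, adjusted p = 0.0114) and EPHA2 (0.49, adjusted p = 0.022). Protein levels and phosphorylation were not measured.

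The genes whose levels over the 8 libraries were closest in shape to those of KITLG, AREG and EREG were found among 10868 named genes of at least 5 CPM, by the root mean square difference of centred log2 CPM. CCDC126 (0.128), SRP9 (0.138) and SCOC (0.14) were nearest to KITLG. SRP9, a subunit of the signal recognition particle, had 106 and 101 CPM in treated against 479 and 349 CPM in untreated MED12 E33Q libraries, and 96.6 and 101 CPM in treated against 224 and 306 CPM in untreated wild-type libraries. For AREG the nearest were ACAD11 (0.0851), POLR2J (0.0943) and UBE2E3 (0.0949), and for EREG they were DR1 (0.0422), HYKK (0.0521) and XRCC2 (0.0561). The neighbours of KITLG had transcripts of 35.6, 44.3 and 35.5% GC.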

How the data were processed

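RNA of 8 libraries was sequenced after rRNA depletion and removal of small RNAs. Trimmomatic, kallisto and GRCh38 are named in the submitters' processing notes, whereas their versions, the annotation and the strand setting were not given there. The authors deposited estimated counts per Ensembl gene ID (40295 IDs and 63 ERCC spike-ins). Counts were rounded to whole numbers, spike-ins were left out of tests, and GENCODE 29 named 35583 IDs. The counts of EREG, ERBB2 and ERBB3 were not whole (tolerance 1e-06), so reads may have been split with other genes; those of the other 6 were whole.

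Genes were kept by filterByExpr (minimum count 10), libraries were scaled by TMM, and edgeR 4.0.16 in R 4.3.3 tested all contrasts on all 8 libraries with group as the only factor (quasi-likelihood F test, two-sided, Benjamini-Hochberg over 16519 genes, threshold 0.05; 4 residual degrees of freedom, biological coefficient of variation 20.4%). Standard errors are the log2 fold change over the square root of F. CPM are counts scaled to library size after TMM. Alternatives included removal of each library's loess trend on GC content and length (span 0.3; 92.4% of tested genes had a GC content), ERCC scaling, DESeq2 1.42.0, limma-voom (limma 3.58.1), other filters and left-out libraries. All 9 genes are reported. From each list the rule takes called genes with the largest change, up to 4 per list and contrast, and some of these were left out for length. The genes and lists were chosen with earlier results of these data known.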

Additional observations from a re-analysis of the deposited data

How the results depend on the processing

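Across the alternatives, values of the 9 genes that were called kept direction and call in 254 cases, lost the call in 58 and turned sign in 5, and values that were not called stayed so in 470, became called in 19 and turned sign in 31. The sign turns with GC and length trend removed were AREG (0.43 in the MED12 E33Q response, 0.09 in the wild-type response), EREG (0.56, 0.52) and BTC (0.16, 0.22), in untreated line differences EREG (-0.22) and ERBB2 (0.08), and in the difference of responses EREG (0.05), TGFA (-0.03), ERBB2 (-0.01) and ERBB3 (-0.13). With spike-in scaling they were HBEGF (-0.55), EGFR (-0.12) and ERBB3 (-0.26) in the wild-type response and AREG (-0.10) and EREG (-0.18) in the untreated line difference. ERBB3 turned in the difference of responses with DESeq2 size factors (-0.02) and with DESeq2 (-0.02). Leaving out MED12 E33Q replicate 2 at both times left a lone library in each MED12 E33Q group. The turns there were HBEGF in the response (0.39) and in the difference of responses (0.15), ERBB2 untreated (0.07) and KITLG with IFN-γ (0.03). The cause of these turns was not tested.

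Counts of called genes moved by over 1.5 times in these cases. With the GC and length trend removed they were 4866 for the MED12 E33Q response (main 8613), 3958 for the wild-type response (6256), 2523 between untreated lines (1392) and 1384 between treated lines (481), where 2 of the 9 genes were called. Spike-in scaling gave 667 untreated and 195 with IFN-γ (0 of the 9). DESeq2 gave 2291 untreated, 888 with IFN-γ (2 of the 9) and 4 for the difference of responses, and no filter gave 2959, 1227 and 267. Fits on only the groups compared gave 614 untreated (1 of the 9) and 2427 with IFN-γ (3 of the 9), and DESeq2 size factors called 1 of the 9 untreated. Without MED12 E33Q replicate 2 at both times there were 3523 calls in the response (3 of the 9), 250 untreated (0 of the 9), 118 with IFN-γ (0 of the 9) and 5 for the difference of responses.

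With each library left out in turn, the lone library of a group being taken to vary like the others, counts ran from 6327 to 9322 for the MED12 E33Q response (3 to 8 of the 9 genes), 3266 to 7796 for the wild-type response (3 to 7), 406 to 4815 between untreated lines (1 to 5; most without untreated wild-type replicate 2), 147 to 1111 between treated lines (0 to 2) and 0 to 2 for the difference of responses (0 of the 9). Sign turns lay within -0.40 to 0.33 for HBEGF in the MED12 E33Q response, -0.05 to 0.49 in the wild-type response, -0.66 to 0.07 untreated and -0.65 to 0.09 in the difference of responses, -0.59 to 0.16 for ERBB2 untreated, -0.09 to 0.03 for KITLG with IFN-γ, and -0.17 to 0.17 for ERBB3 and -0.04 to 0.39 for AREG in the difference of responses. The labels do not say that replicate numbers pair libraries. Correlations of the deviations of replicate 1 ran from -0.002 to 0.27, and with a replicate block 8725, 6765, 1849, 523 and 0 genes were called for the MED12 E33Q response, the wild-type response, the line differences untreated and with IFN-γ, and the difference of responses, with 7, 6, 3, 1 and 0 of the 9 genes. Among the 9 genes HBEGF, at 5.96 to 13.1 CPM, had the largest standard error of the responses, 0.29 on the log2 scale, which limits what 2 libraries a group can show of it.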
